A study of Mus musculus with 10 samples.

Results

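The genes described here are those whose lowest start lies between 145.0 and 147.5 Mb on mouse chromosome 4 (build mm10/GRCm38), a stretch that holds a tandem array of zinc finger genes, and that gathered at least 10 read counts over the 10 libraries of the study. The deposited table has 46959 gene entries, of which 81 start in this window and 35 reached the minimum; 21717 entries of the whole table did. The members were thus chosen by their summed counts, and the window was proposed with earlier results of these data known. Just below the minimum stood Rex2, Gm13169 and Gm13231 with 9 counts each and Vmn2r-ps18 with 8, and just above it Platr16 with 10, Gm13234 and Vmn2r-ps19 with 12 each and Gm13243 with 15.

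Total RNA was sequenced in 5 groups of 2 libraries from mice aged 8 to 10 weeks. Femoral cells, labelled as B cells and as strain C57BL6, came from the groups called 2KO, deltaEmu and RAG2_deficient. RAG2 is needed to rearrange antigen receptor genes, so B cells of RAG2-deficient mice stop at the progenitor stage. The label deltaEmu names a deletion of Eµ, an enhancer of the immunoglobulin heavy chain locus; 2KO is not spelled out, and the series' design text names mice lacking both 5′Eµ and the 3′RR, the other heavy chain enhancer region. There was no wild-type femoral group. CD43- spleen cells, labelled strain 129 and wild type, were cultured for 48 h with 5 µg/ml LPS and 20 ng/ml IL4, which drive B cells to divide and switch class, without (LPS_IL4) or with (LPS_IL4_SAHA) the histone deacetylase inhibitor SAHA, whose dose reads 200 nM where samples are named but is a weight per volume in the protocol text. The growth protocol speaks of KOKI and BLACK-6 mice for the spleen cells, which differs from their strain label. RNA was pooled from several mice, and nothing says how the pools of a group relate, so the p-values below measure only the spread between these pools.

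Libraries held 17710154 to 25544275 counts. Columns of the table were assigned by the S number that ends each sample description; the numbers in the titles give the same column for 2 samples and another for 8, and titles and descriptions place SAHA on opposite spleen samples. Recombination genes separated the tissues: Rag2 was at 13.3 to 23.8 CPM (read counts scaled to library size) in femoral libraries and at 0 in the spleen, and the 5 B lineage markers summed to 265 to 1027 CPM in femoral libraries and 1669 to 1836 CPM in the spleen. Rag2 read 22.8 ± 1.48 CPM (SD, n = 2) in RAG2_deficient, 16.7 ± 4.82 in 2KO and 17 ± 4.76 in deltaEmu, and whole-gene counts do not show which part of the gene is deleted. Femoral libraries also carried 6410 to 19423 CPM of 7 neutrophil markers (highest in deltaEmu), 1194 to 7744 CPM of 5 erythroid markers (highest in 2KO) and 1130 to 7412 CPM of 5 stromal markers (highest in RAG2_deficient), against at most 4.03 CPM for any of these sums in the spleen. In such bulk RNA, fewer cells of a type and less RNA per cell cannot be told apart, and the part of these other cells in the results on the zinc finger genes was not tested.

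KRAB zinc finger proteins bind DNA through a row of C2H2 fingers, each held around a zinc ion by a pair of cysteines and a pair of histidines. Their KRAB domain recruits Trim28 (KAP1), which brings the histone methyltransferase Setdb1 and heterochromatin proteins, and many members of the family silence transposable elements. The genes multiply as tandem copies, and the distal chromosome 4 array of the mouse is a young one, whose copies are near-identical in many stretches and whose content is known to differ between inbred strains. Of the 35 members, 13 were protein coding and 19 pseudogenes by GENCODE vM21, 29 lay on the plus strand, and 14 had at least 1 C2H2 pattern in their translated longest transcript, 10 of them coding. The pair at the window's proximal edge, Tnfrsf1b and Tnfrsf8, encode the cytokine receptors TNFR2 and CD30 and belong to another family. Zfp600, with 3 counts, and Rex2, with 9, both coding C2H2 genes of the array, were below the minimum, as were Zfp980 with 5, Zfp978 with 8 and Zfp986 with 1.

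The likeness of the copies is shown for 6 members, chosen because the results below turn on them. Each line gives 84 bases of the longest GENCODE transcript on the gene's own strand. For Zfp990 they run from the codon of the first cysteine of its first finger through the link to the next finger. Each other line is that transcript's best match to Zfp990 without gaps. It need not be the gene's first finger, so the likeness is a best case. Capitals mark bases that differ from Zfp990.
Zfp990: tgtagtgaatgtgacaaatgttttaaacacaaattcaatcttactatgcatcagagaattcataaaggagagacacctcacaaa
Zfp987: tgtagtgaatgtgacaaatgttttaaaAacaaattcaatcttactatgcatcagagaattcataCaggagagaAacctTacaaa
Gm13212: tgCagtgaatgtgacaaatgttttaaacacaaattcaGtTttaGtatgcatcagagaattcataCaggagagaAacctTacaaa
Zfp992: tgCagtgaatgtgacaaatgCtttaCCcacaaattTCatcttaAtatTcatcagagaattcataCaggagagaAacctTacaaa
Zfp991: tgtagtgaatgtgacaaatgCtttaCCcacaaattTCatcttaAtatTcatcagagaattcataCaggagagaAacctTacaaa
Znf41-ps: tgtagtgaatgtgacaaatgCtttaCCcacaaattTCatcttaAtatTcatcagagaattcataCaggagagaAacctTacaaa
Over these 84 bases Zfp987 differed from Zfp990 at 4 positions, Gm13212 at 7, Zfp991 and Znf41-ps at 10 and Zfp992 at 11. Zfp991 and the pseudogene Znf41-ps were the same at all 84.

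How far a read can be given to 1 of these genes was measured as the share of a gene's 50-base words found in no other GENCODE gene. The median over the 35 members was 43.2%, and 22 had under 50%. The reads of Zfp990 (70.9% unique words) and Zfp982 (88.1%) were thus largely assignable, whereas Zfp991 had 17.8%, Zfp993 13.2%, Zfp987 11.0% and Znf41-ps 10.4%. Of the words of Znf41-ps, 82.8% also occur in Zfp991, and of those of Zfp993, 81.9%. The sources used here give neither the strand setting nor the counting of multiply matching reads, so counts within the pair Znf41-ps and Zfp991, and for Zfp993 and Zfp987, are uncertain as to which copy they came from. Low counts were not confined to such genes: the 46 window entries below the minimum had a median of 31.7% unique words, with a range of 0 to 100%.

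**Figure D1:**
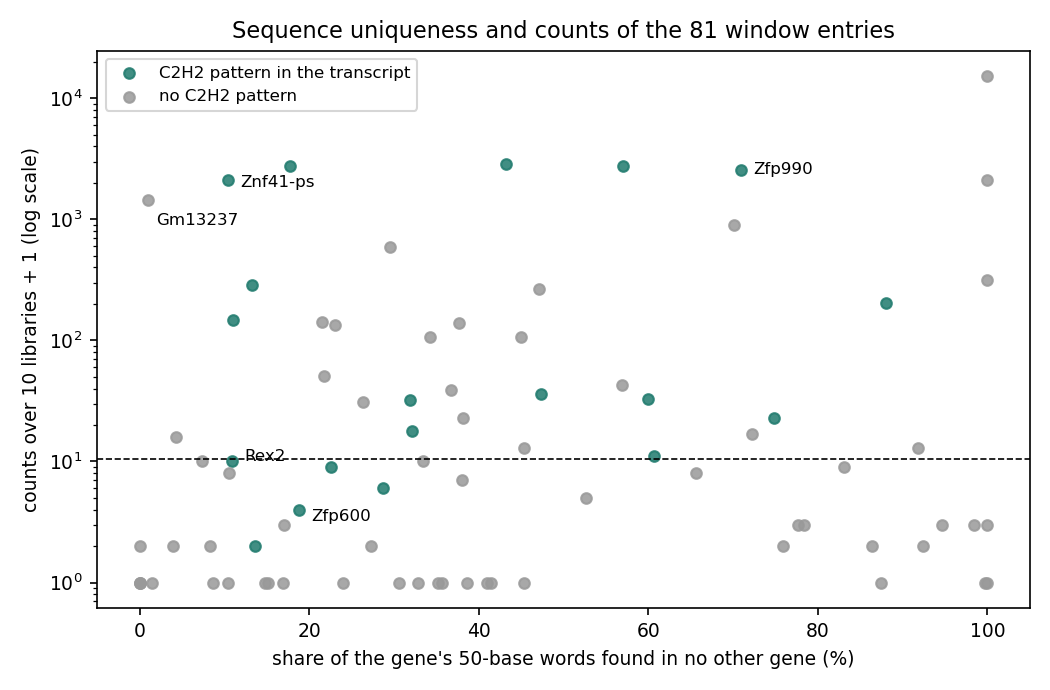
Share of each window entry's 50-base words found in no other gene (x axis, %) against its counts over the 10 libraries plus 1 (y axis, log scale), green for entries with a C2H2 pattern; the dashed line marks the minimum for members. Zfp990 lies at 70.9% and Znf41-ps at 10.4%, with 2558 and 2118 counts, while Gm13237 has 1448 counts with 1% unique words.

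Start sites of some array genes resemble each other too. RefSeq promoter windows (build GRCm38.p6) were found for 8 members. The 250 bases before the start of 3 zinc finger members with unlike levels are shown 5′ to 3′, all on the plus strand. Capitals mark the 21-base run that they share with the window of Zfp988. It is the longest run common to these 4 windows, which were compared because they lie near the deposited gene start. The 4 genes therefore hold it by construction. The window of Zfp981 and the other windows of Zfp982 lack it.
Gm13212, chr4:145584950-145585199: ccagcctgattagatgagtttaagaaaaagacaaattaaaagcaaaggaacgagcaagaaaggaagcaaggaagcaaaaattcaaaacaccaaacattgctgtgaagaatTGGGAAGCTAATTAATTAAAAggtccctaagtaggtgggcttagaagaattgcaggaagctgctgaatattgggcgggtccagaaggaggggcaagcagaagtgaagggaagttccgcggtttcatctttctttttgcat
Zfp987, chr4:146097062-146097311: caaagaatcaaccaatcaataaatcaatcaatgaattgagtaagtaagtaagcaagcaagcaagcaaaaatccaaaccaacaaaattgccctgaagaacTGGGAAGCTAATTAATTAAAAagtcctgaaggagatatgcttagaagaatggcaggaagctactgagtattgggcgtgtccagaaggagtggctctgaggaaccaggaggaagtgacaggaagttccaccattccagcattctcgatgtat
Zfp982, chr4:147492167-147492416: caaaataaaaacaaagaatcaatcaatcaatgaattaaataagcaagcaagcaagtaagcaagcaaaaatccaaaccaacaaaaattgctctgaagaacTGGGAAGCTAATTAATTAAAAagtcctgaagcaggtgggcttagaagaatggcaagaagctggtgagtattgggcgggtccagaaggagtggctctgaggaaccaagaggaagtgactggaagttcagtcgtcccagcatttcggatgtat
The run, TGGGAAGCTAATTAATTAAAA, was searched on both strands and occurred in 7 of 32851 promoter windows (0.0213%), each of a chromosome 4 zinc finger gene: Gm13212, Zfp534, Zfp980, Zfp982, Zfp984, Zfp987 and Zfp988. The 4 members that hold it differed in level, from 7.12 to 22.1 CPM per library for Gm13212 to at most 0.401 CPM for Zfp988.

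To describe on and off states, a gene was called on in a group where both libraries had at least 1 CPM (library sizes adjusted by TMM, edgeR's scaling), off where both had at most 0.1 CPM, and between otherwise. By this rule 3 of the 35 members (8.57%) were on in at least 1 group and off in another, beside 7.94% of the 21717 genes, so the share in the window was close to that of all genes. For the Zfp genes elsewhere in the genome it was 7 of 353 (1.98%). The 3 members were Zfp990, Zfp987 and Gm21411. At 0.5 CPM for on and 0.2 CPM for off there were 5 such members, and at 2 and 0.05 CPM there was 1. With CPM on plain library totals there were 2.

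On in all 5 groups were 7 of the 35 members, beside 10581 of the 21717 genes. On in no group were 19 members, beside 6499 genes. None was off in all 5 groups, beside 13 genes. Members on numbered 11 in LPS_IL4, 11 in LPS_IL4_SAHA, 12 in RAG2_deficient, 13 in 2KO and 11 in deltaEmu, and members off 9, 11, 5, 4 and 6 in the same order. The 7 always on were the receptor gene Tnfrsf1b, the C2H2 genes Gm13212, Zfp991, Zfp992 and Znf41-ps, the lincRNA Gm13166 and the processed pseudogene Gm13237. Per kilobase of gene model, Gm13212 stood at 2.76 to 5.76 CPM across the group means, Zfp992 at 1.47 to 4.15, Znf41-ps at 1.05 to 7.55 and Zfp991 at 1.69 to 8.07, so that these 4 overlapped in level. The processed pseudogenes Gm13237 and Gm13226 reached 16.5 and 22 CPM per kilobase in LPS_IL4; 91% of the words of Gm13237 also occur in another pseudogene of the window, Gm13232, and 29.9% of those of Gm13226 in the ribosomal protein gene Rpl28.

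**Figure D2:**
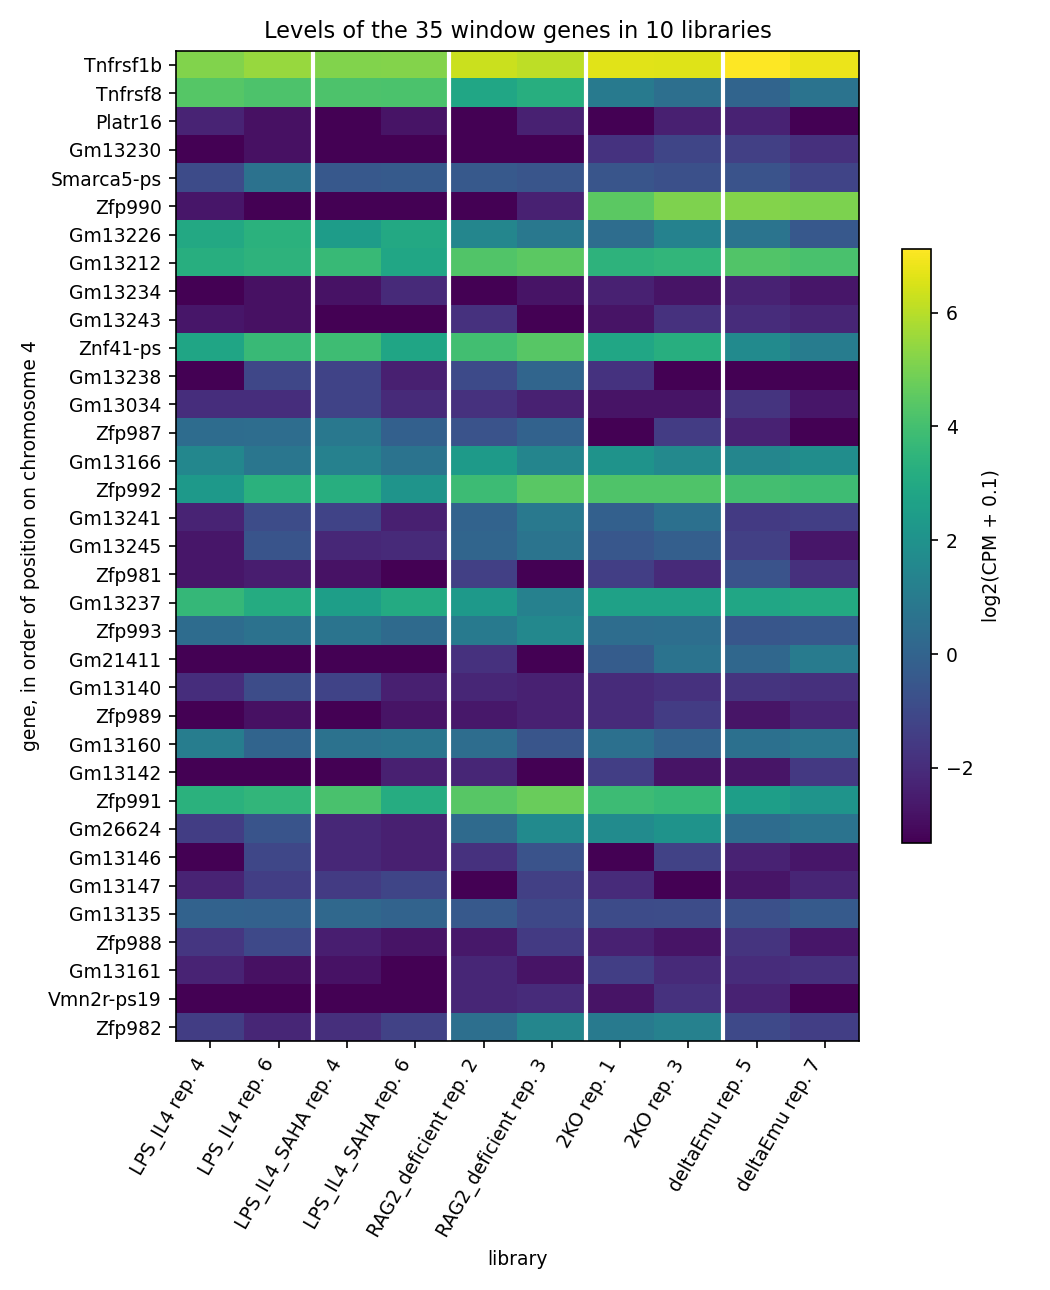
Level of the 35 members (y axis, in order along chromosome 4) in the 10 libraries (x axis, white lines between groups), as colour on a log2(CPM + 0.1) scale. Zfp990 is at the dark end in 6 libraries and between 22.6 and 35.8 CPM in the 4 libraries of 2KO and deltaEmu.

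Zfp990 (Gm13225 in the table, chr4:145510759-145539188, plus strand, a coding gene with 13 C2H2 patterns) was read 475 and 772 times in the 2KO libraries and 728 and 580 times in deltaEmu. The RAG2_deficient libraries had 0 and 2 reads, the LPS_IL4 libraries 1 and 0, and both LPS_IL4_SAHA libraries 0. Every 2KO and deltaEmu library thus lay far above the other 6, and only these 2 groups carried the gene past the count minimum. In CPM the levels were 28.5 ± 8.31 in 2KO and 34.5 ± 1.94 in deltaEmu (SD, n = 2 each), against 0.0484 ± 0.0685 in RAG2_deficient. As a ratio of counts, 2KO was 538-fold above RAG2_deficient (95% counting interval 149 to 4448) and deltaEmu 649-fold (179 to 5362). Both differences passed edgeR's quasi-likelihood test, with Benjamini-Hochberg adjusted p = 0.000271 and 0.000111. Between 2KO and deltaEmu it differed by -0.26 ± 0.26 (log2, SE; adjusted p = 0.705). The state of Zfp990 was off in both spleen groups and RAG2_deficient and on in 2KO and deltaEmu. This state was shared by 4 of the 21717 genes, Zfp990 included. In RAG2_deficient the off state was near its limit, at 0.0969 CPM in replicate 3 against 0.1 CPM. Per kilobase Zfp990 was the highest of the C2H2 members in 2KO (8.14 CPM) and deltaEmu (9.85 CPM).

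The groups that differ in Zfp990 also differ in other measured ways. Ddx3y, a Y chromosome gene, was at 0.118 ± 0.168 CPM in RAG2_deficient, 45.1 ± 1.61 in 2KO, 60 ± 13 in deltaEmu and 48.3 to 128 in the spleen libraries. The X chromosome gene Xist was at 1957 ± 1118 CPM in RAG2_deficient, 897 ± 174 in 2KO and 733 ± 78.5 in deltaEmu. In the spleen libraries Xist reached at most 0.201 CPM. The 2KO and deltaEmu pools thus carried both transcripts. Neutrophil markers summed to 6802 ± 554 CPM in RAG2_deficient, 9287 ± 1272 in 2KO and 18108 ± 1860 in deltaEmu, and stromal markers to 6975 ± 618, 1358 ± 323 and 2197 ± 52.6. The part of sex and of other cells in the Zfp990 pattern was not tested. The strain labels are the same in the 3 femoral groups; whether the array itself differs between these mice was not tested.

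Gm21411 (chr4:146892406-146909590, minus strand, coding in GENCODE but a long noncoding RNA in RefSeq, no C2H2 pattern found) followed a like order at a lower level. The 2KO libraries had 15 and 33 counts, those of deltaEmu 21 and 34, those of RAG2_deficient 3 and 0, and all 4 spleen libraries 0. The 2KO and deltaEmu libraries again did not overlap the rest. As a ratio of counts, deltaEmu was 18.2-fold above RAG2_deficient (5.91 to 90.9; edgeR adjusted p = 0.0344) and 2KO 13.8-fold (4.45 to 69.3; adjusted p = 0.0784, which did not pass). The deltaEmu call was lost without RAG2_deficient replicate 3 (adjusted p = 0.0851), deltaEmu replicate 5 (0.123) or deltaEmu replicate 7 (0.189). Like Zfp990, it passed the count minimum only through these 2 groups. Of its words, 34.2% are unique and 45.5% also occur in Zfp989. The unprocessed pseudogene Gm13230, whose transcript has 6 C2H2 patterns, was read 4 and 8 times in the 2KO libraries. It was read 6 and 3 times in those of deltaEmu, with 1 read in all other libraries together. Gm13230 thus also passed the count minimum only through these 2 groups, and its counts were too few to be tested.

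Zfp987 (Gm13051, chr4:146097298-146126621, plus strand, coding, 14 C2H2 patterns) ran the other way. Its counts were 22 and 31 in LPS_IL4, 41 and 18 in LPS_IL4_SAHA, 9 and 18 in RAG2_deficient, 0 and 6 in 2KO, then 2 and 0 in deltaEmu. The LPS_IL4 libraries lay above all femoral ones, the LPS_IL4_SAHA and RAG2_deficient libraries overlapped, and 2KO and deltaEmu were lowest. LPS_IL4 was 23-fold above deltaEmu by counts (95% counting interval 6.07 to 195), with edgeR adjusted p = 0.00697, and above 2KO by 3.10 ± 0.90 (log2, SE; adjusted p = 0.0156). Each call rested in part on 1 library: without deltaEmu replicate 7 the adjusted p was 0.0556, and without 2KO replicate 1 it was 0.0673. The state of Zfp987, on in LPS_IL4, off in deltaEmu and between elsewhere, was held by no other gene of the table. However, 0.811 CPM in 1 SAHA library decides the between state there. The off state in deltaEmu was near its limit, at 0.0985 CPM in replicate 5 against 0.1 CPM. Only 11.0% of the words of Zfp987 are unique, and 73.4% also occur in Gm8935 on chromosome 3. Which copy these counts came from is therefore uncertain.

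**Figure D3:**
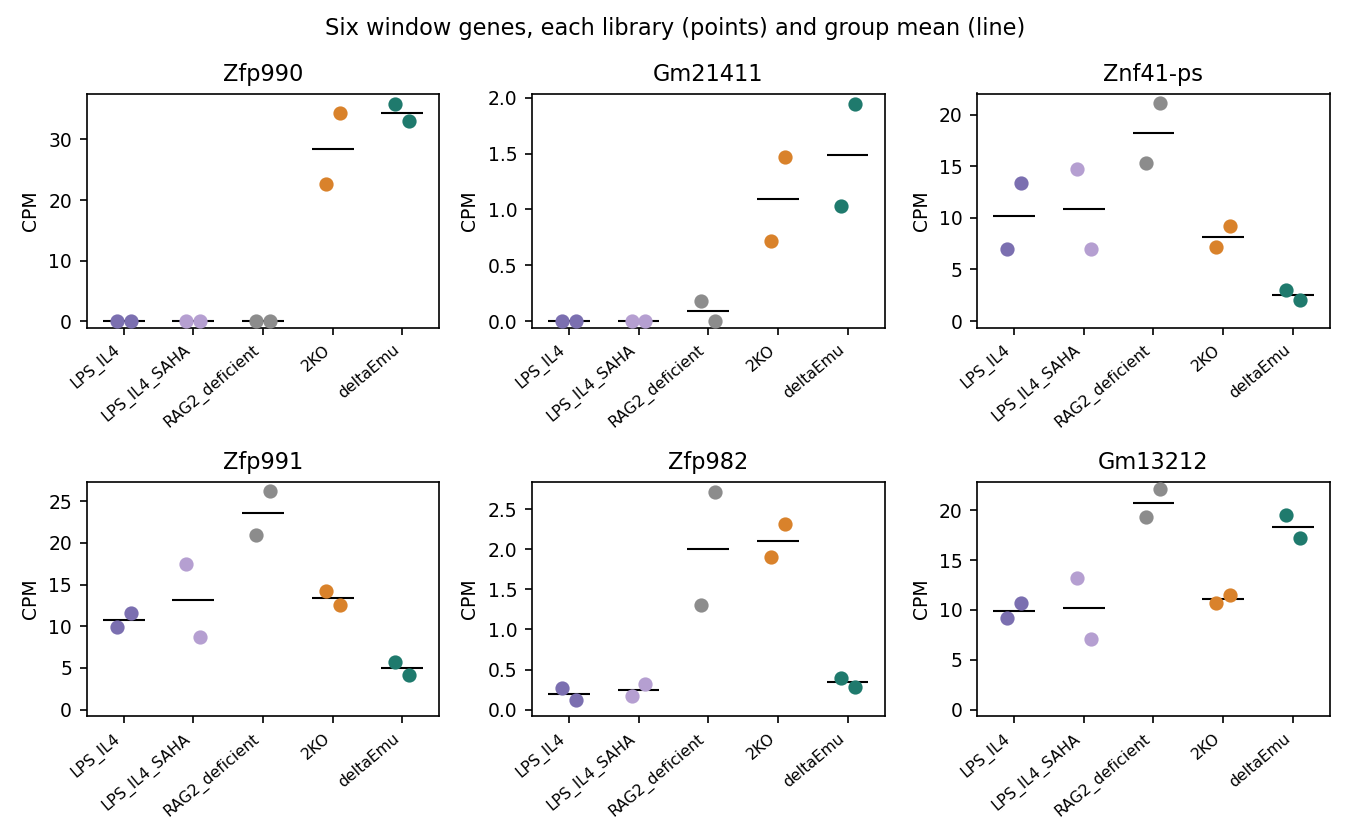
CPM (y axis, each panel from its own 0) of 6 members in every library (points) with the group mean (line), for the 5 groups (x axis). Zfp990 and Gm21411 are at or near 0 outside 2KO and deltaEmu, while Znf41-ps and Zfp991 are lowest in deltaEmu.

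Between 2KO and deltaEmu, 3 of the 19 members tested were called at an adjusted p of 0.05 or less, beside 3.70% of 16538 genes. All 3 were higher in 2KO, as were 1.79% of all genes. Znf41-ps was at 7.14 and 9.21 CPM in 2KO and 3.05 and 2 CPM in deltaEmu, a log2 difference of 1.70 ± 0.30 (SE; edgeR adjusted p = 0.0231). Zfp991 was at 14.2 and 12.6 CPM against 5.71 and 4.17, a difference of 1.45 ± 0.23 (adjusted p = 0.0164). Zfp982, a coding gene at the distal end of the window with 7 C2H2 patterns, was at 1.9 and 2.31 CPM against 0.394 and 0.285, a difference of 2.62 ± 0.52 (adjusted p = 0.0367). The groups did not overlap for any of the 3. The first pair share most of their words and need not be separate observations, while Zfp982 shares at most 7% of its words with any 1 gene. The median log2 difference was 0.32 over the 19 members and -0.01 over all genes tested, and 16 members were too low to be tested.

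With 1 of the 4 libraries left out, most of these calls were lost while the differences kept their size. Zfp982 had adjusted p = 0.0853 and 0.182 without 2KO replicate 1 or 3, and 0.25 and 0.326 without deltaEmu replicate 5 or 7, at log2 differences of 2.43 to 2.85. For Zfp991 the adjusted p was 0.0717, 0.0542, 0.0948 and 0.209 in the same order, at 1.26 to 1.68. Znf41-ps was lost without 2KO replicate 3 (0.128), deltaEmu replicate 5 (0.108) or deltaEmu replicate 7 (0.249), at 1.45 to 2.03, and in one fit over all 10 libraries (0.0895). Directions were the same throughout. Gm13212, a coding gene with 20 C2H2 patterns, leaned the other way, at 10.7 and 11.5 CPM in 2KO and 19.5 and 17.2 in deltaEmu, without passing (log2 difference -0.71 ± 0.18; adjusted p = 0.0884).

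Between deltaEmu and RAG2_deficient, 10 of the 19 members were called (9.81% of all genes), 3 higher and 7 lower in deltaEmu, beside 4.42% and 5.39% of all genes. Apart from Zfp990 and Gm21411, the higher member was Tnfrsf1b, by 0.74 ± 0.17 on the log2 scale (adjusted p = 0.0344). The lower ones included 4 genes with C2H2 patterns. Of these, Znf41-ps and Zfp993 share 82.8% and 81.9% of their words with Zfp991, so their calls need not be separate observations. Znf41-ps stood at 3.05 and 2 CPM in deltaEmu and 15.3 and 21.1 CPM in RAG2_deficient, a log2 difference of -2.89 ± 0.30 (adjusted p = 0.00172). Zfp991 was at 5.71 and 4.17 CPM against 20.9 and 26.2, a difference of -2.29 ± 0.24 (adjusted p = 0.00169). No library of one group reached the other for either gene. Zfp982 differed by -2.59 ± 0.52 (adjusted p = 0.0218) and Zfp993, a short coding copy with 2 C2H2 patterns, by -1.99 ± 0.40 (adjusted p = 0.0223). The receptor gene Tnfrsf8 (-2.81 ± 0.38, adjusted p = 0.00477) and the processed pseudogenes Gm13241 (-2.37 ± 0.58, adjusted p = 0.0429) and Gm13245 (-2.76 ± 0.66, adjusted p = 0.0392) completed the list. The median was -0.50 over the 19 members and -0.01 over all genes.

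Of these calls, Zfp990, Znf41-ps and Zfp991 held under each of the 8 alternatives run, leaving out each library included. In one fit over all 10 libraries the calls of Gm13241 and Gm13245 were lost. Calls lost without RAG2_deficient replicate 3 were Zfp982 (adjusted p = 0.0571), Zfp993 (0.059), Gm13245 (0.115), Gm13241 (0.152) and Gm21411 (0.0851). Without deltaEmu replicate 5 those of Zfp982 (0.17), Zfp993 (0.209), Gm13241 (0.301), Gm13245 (0.116), Tnfrsf1b (0.301), Tnfrsf8 (0.0759) and Gm21411 (0.123) were lost. Without deltaEmu replicate 7 the losses were Zfp982 (0.164), Zfp993 (0.148), Gm13241 (0.208), Gm13245 (0.22), Tnfrsf1b (0.121) and Gm21411 (0.189). Neutrophil markers were higher in deltaEmu (18108 ± 1860 CPM) than in RAG2_deficient (6802 ± 554), and progenitor B markers lower (636 ± 177 against 2101 ± 54.9); their part in these differences was not tested.

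Between 2KO and RAG2_deficient, 3 of 19 members were called (4.31% of all genes): Zfp990 higher in 2KO, Tnfrsf8 and Gm13212 lower. Of all genes 1.26% were called higher and 3.05% lower. Tnfrsf8 was at 1.9 and 1.29 CPM in 2KO and 7.11 and 9.3 in RAG2_deficient, a log2 difference of -2.39 ± 0.36 (edgeR adjusted p = 0.0151; 0.121 without 2KO replicate 3). Gm13212 was at 10.7 and 11.5 CPM against 19.3 and 22.1, a difference of -0.93 ± 0.18 (adjusted p = 0.0357), and lost its call without 2KO replicate 1 (0.185) or 3 (0.237) and in the fit over all 10 libraries (0.114). Both stood lower in each 2KO library than in each RAG2_deficient library. Zfp982 was at nearly the same level in the groups (2.11 ± 0.29 and 2.01 ± 0.996 CPM; log2 difference 0.03 ± 0.43). Znf41-ps (-1.19 ± 0.27, adjusted p = 0.0553) and Zfp991 (-0.84 ± 0.22, adjusted p = 0.0798) did not pass. DESeq2 called 6 members in this comparison, and 1156 genes in all where edgeR called 713. A fit with no filter on low counts called 7 members, and its count over all genes is not given here. The comparisons of 2KO and deltaEmu with RAG2_deficient share the same controls.

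Set in order, Znf41-ps and Zfp991 were lowest in deltaEmu and highest in RAG2_deficient, with 2KO between and no overlap of libraries among these 3 groups. Genes elsewhere also set deltaEmu apart: Trim12a was at 0.0246 ± 0.0348 CPM there and at 33.1 to 72.4 in the other group means, and Trim5 at 0.106 ± 0.0111 against 8.01 to 21.5. Klri2 set deltaEmu apart among the femoral groups only, at 0.0246 ± 0.0348 CPM against 5.84 ± 1.97 in 2KO and 12.6 ± 4.05 in RAG2_deficient. Every spleen library had Klri2 at 0 CPM. Ifi202b, known to differ in level between inbred strains, was at 78.3 ± 16.3 CPM in deltaEmu and at most 0.0484 in any library of the other groups. These genes were chosen from earlier results of these data, and a difference in genetic background was not tested. For Zfp992 the femoral groups were at 17.9 ± 5.15, 18.9 ± 0.341 and 15.3 ± 1.1 CPM (RAG2_deficient, 2KO, deltaEmu), and none of the 3 comparisons passed. Summed over the 14 members with a C2H2 pattern, RAG2_deficient had 73.9 and 98.2 CPM, 2KO 77.8 and 91.1 and deltaEmu 82.5 and 72.5, so the groups overlapped. Without Zfp990 the sums were 73.9 and 98.1, 55.2 and 56.7, and 46.7 and 39.4 CPM. In 2KO and deltaEmu, Zfp990 thus supplied between 22.6 and 35.8 CPM of the total.

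**Figure D4:**
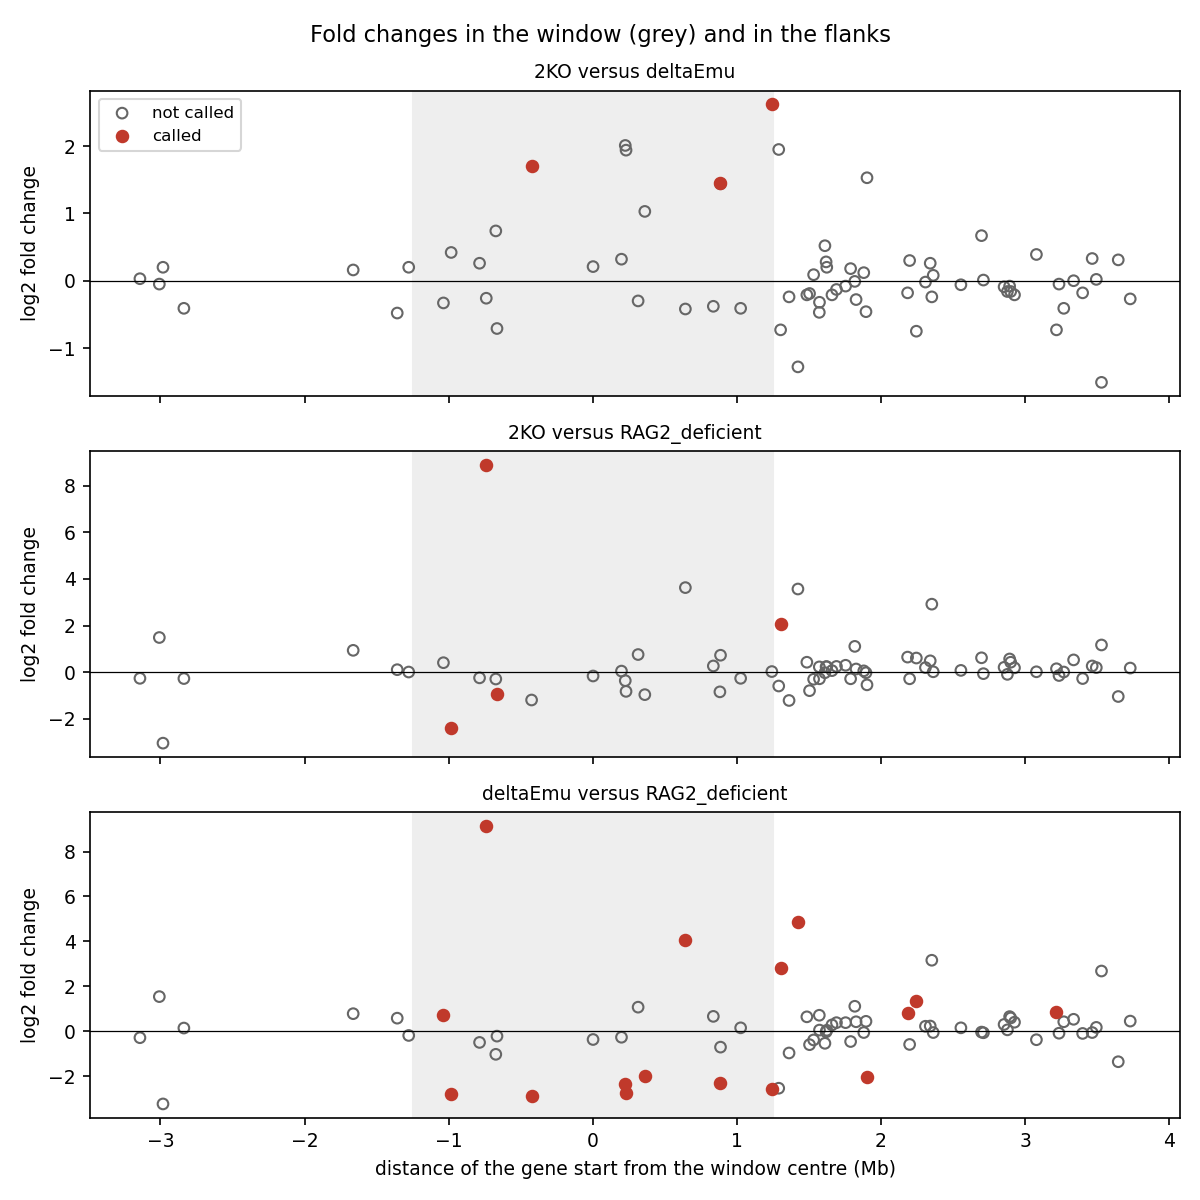
Log2 fold change (y axis) of genes in the window (grey) and its flanks against distance of the gene start from the window centre in Mb (x axis), for the 3 femoral comparisons; filled points passed edgeR's test. In deltaEmu versus RAG2_deficient 10 window genes and 6 of 47 beyond the distal edge are filled, and none of 7 before the proximal edge.

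Of the 47 genes tested after the window, 0, 1 and 6 were called in 2KO versus deltaEmu, 2KO versus RAG2_deficient and deltaEmu versus RAG2_deficient, and of the 7 before it none. These are 0%, 2.13% and 12.8% of the 47, beside 3.70%, 4.31% and 9.81% of all genes, so the distal flank was near or below the background. The 6 included Gm13154 (2.82 ± 0.45 on the log2 scale, adjusted p = 0.00965) and the zinc finger gene Zfp534 (4.85 ± 0.89, adjusted p = 0.0158), both higher in deltaEmu, which start at 147553277 and 147673502 on chromosome 4. Gm13154 was also the 1 gene called in 2KO versus RAG2_deficient (2.08 ± 0.46, adjusted p = 0.049). Of 326 Zfp genes elsewhere in the genome, 4, 11 and 24 were called in the same 3 comparisons. A list of 19 KRAB pathway genes held corepressor and chromatin genes, such as Trim28, Setdb1 and Hdac1, and the zinc finger gene Zfp809. All 19 were on in all 5 groups, and none was called between femoral groups.

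In the spleen cultures, the libraries stood apart in a way that the labels do not give. Same-numbered pools deviated from their group means in opposite directions (r = -0.44 across 17483 genes, which are not independent replicates), and the crossed contrast, LPS_IL4 replicate 6 with LPS_IL4_SAHA replicate 4 against the other pair, held 51.1% of the sum of squares over 12287 genes and 66.8% over 12 members. SAHA itself held 27.5% and 12.1%. Znf41-ps showed this split, with 333 and 352 counts in the first pair and 130 and 154 in the other. Zfp992 did so too, at 10.1 and 9.23 CPM against 4.84 and 4.14.

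With SAHA, none of the 14 members tested passed, and neither did any of 13913 genes (0.00%; edgeR). At an unadjusted p under 0.05 there were 0 members and 187 genes, and DESeq2 also called 0. The expressed C2H2 genes were at like means without and with SAHA: Gm13212 at 9.93 ± 1.11 and 10.1 ± 4.27 CPM, Zfp991 at 10.8 ± 1.2 and 13.1 ± 6.19, and Zfp992 at 7.46 ± 3.7 and 6.69 ± 3.59. For Zfp991 the log2 difference was 0.24 ± 0.37 (SE), so changes of modest size could not have been seen with this spread. Among members whose libraries did not overlap, the pseudogenes Gm13237 (-0.63 ± 0.31, adjusted p = 0.939) and Gm13226 (-0.49 ± 0.29, adjusted p = 0.939) had the widest differences, which did not pass. Zfp990, Gm21411, Gm13230, Gm13243 and Vmn2r-ps19, all off in LPS_IL4, were at 0 counts in both SAHA libraries.

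Between LPS_IL4 spleen cells and each femoral group, tissue, culture and labelled strain differ together and cannot be told apart. Called were 10 of 20 members against 2KO (53.0% of all genes), 10 against RAG2_deficient (56.0%) and 11 against deltaEmu (53.1%), shares close to the background. Against 2KO, 3 were higher and 7 lower in LPS_IL4, beside 21.8% and 31.2% of all genes. Against RAG2_deficient it was 3 and 7 as well, beside 23.8% and 32.2%, and against deltaEmu 6 and 5, beside 20.9% and 32.2%. Medians over all genes were themselves shifted, by -0.15, -0.17 and -0.13 on the log2 scale, and those over the members were -0.24, -0.85 and 0.28. Tnfrsf8, the CD30 gene of activated lymphocytes, was at 20.7 and 18.3 CPM in LPS_IL4 and at most 9.3 CPM in any femoral library, higher by 1.24 ± 0.26 than RAG2_deficient (adjusted p = 0.00268) and by 4.01 ± 0.31 than deltaEmu (adjusted p = 5.48e-06). Tnfrsf1b was lower in LPS_IL4 than in each femoral group, with log2 differences of -0.87 ± 0.19 (RAG2_deficient), -1.31 ± 0.19 (2KO) and -1.65 ± 0.19 (deltaEmu). Among the zinc finger genes, Zfp982 was at 0.269 and 0.12 CPM in LPS_IL4, lower than RAG2_deficient by -3.39 ± 0.59 (adjusted p = 0.000863) and than 2KO by -3.45 ± 0.58 (adjusted p = 0.000842). Against deltaEmu, where Zfp982 was also low, the difference was -0.85 and did not pass.

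Against the spleen, too, deltaEmu was the group in which Znf41-ps and Zfp991 lay lowest. Znf41-ps was higher in LPS_IL4 than in deltaEmu by 2.01 ± 0.45 (log2, SE; edgeR adjusted p = 0.00424) and Zfp991 by 1.13 ± 0.33 (adjusted p = 0.0163; 0.12 without deltaEmu replicate 7). Against RAG2_deficient, Zfp991 was lower in LPS_IL4, by -1.12 ± 0.32 (adjusted p = 0.0129; 0.054 without LPS_IL4 replicate 4 and 0.06 without RAG2_deficient replicate 3). Zfp991 therefore stood above deltaEmu and below RAG2_deficient in the spleen cells. Gm26624, a lincRNA with 100% unique words that spans 147136278 to 147457019, was at 0.269 and 0.562 CPM in LPS_IL4 and 3.14 and 4.05 in 2KO, a difference of -3.06 ± 0.55 (adjusted p = 0.00126). The processed pseudogene Gm13226 was higher in LPS_IL4 than in 2KO (2.30 ± 0.46), RAG2_deficient (2.03 ± 0.46) and deltaEmu (3.02 ± 0.49), with adjusted p = 0.00238, 0.00415 and 0.000655. Zfp992 was lower than in RAG2_deficient by -1.25 ± 0.41 (adjusted p = 0.0267), a call lost without LPS_IL4 replicate 4 or RAG2_deficient replicate 3 (0.126 each). Gm13212 was lower than in RAG2_deficient by -1.06 ± 0.27 (adjusted p = 0.0082). Of the 19 KRAB pathway genes, 8, 10 and 9 were called against 2KO, RAG2_deficient and deltaEmu. These are 42.1%, 52.6% and 47.4%, beside 53.0%, 56.0% and 53.1% of all genes, so no share was above the background. Trim28 was higher in LPS_IL4 each time, by 0.91 ± 0.21, 1.39 ± 0.22 and 0.94 ± 0.21.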

How the data were processed

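The authors deposited 1 table of read counts per gene for the 10 libraries; per the submitters' processing notes it was made with STAR 2.4.0a and featureCounts of Subread 1.4.6-p1 on mm10/GRCm38, and per the labels' protocols the libraries were stranded total RNA. The sources used here state neither the annotation release nor the strand setting, nor how multiply matching reads were counted. 100 spike-in and phiX entries were left out. Counts were tested with edgeR 4.0.16 (R 4.3.3, filterByExpr, TMM, quasi-likelihood, Benjamini-Hochberg over all genes). There was 1 fit over the 6 femoral libraries and 1 over the 4 spleen libraries. The comparisons of LPS_IL4 with femoral groups used 1 fit over all 10 libraries, LPS_IL4_SAHA included. The script was tested on simulated data. DESeq2 1.42.0, no filter, fewer genes or libraries, and other thresholds were the alternatives. Gene classes and transcripts are from GENCODE vM21, promoters from RefSeq. By the labels, the spleen groups share pool numbers (4_et_7, 6_et_8), taken as the same mice; same-numbered libraries deviated in opposite directions (r = -0.44), and whether pool or treatment labels are crossed was not tested. Genes are named where they had an on/off pattern, were called without overlap of libraries, or belonged to a fixed list; Gm13230, Gm13166, Zfp988 and the flank genes were added after their values were seen. The members and lists were chosen with earlier results of these data known.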

Additional observations from a re-analysis of the deposited data

How the results depend on the processing

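With no filter on low counts, 5 members were called in 2KO versus deltaEmu and 7 in 2KO versus RAG2_deficient. The counts over all genes in these unfiltered fits are not given here. DESeq2 called 6 members in 2KO versus RAG2_deficient, and 1156 genes in all where edgeR called 713. Leaving out 1 library at a time gave 0 to 1 members in 2KO versus deltaEmu, 1 to 7 in 2KO versus RAG2_deficient, 3 to 14 in deltaEmu versus RAG2_deficient, 6 to 13 in LPS_IL4 versus RAG2_deficient and 6 to 11 in LPS_IL4 versus deltaEmu. The lone library left in such a group is assumed to vary like the others. Members with an on/off pattern numbered 5 at 0.5 and 0.2 CPM, 1 at 2 and 0.05 CPM and 2 with CPM on plain library totals. Of 47 member calls over the comparisons, 38 held under every alternative that kept all libraries, 22 under every alternative run, and 0 reversed. With the pool number as a replicate block, 0 members were called for SAHA, as without it; with the crossed pool numbers as a block, chosen after seeing the data, also 0. The residual degrees of freedom were 3 for femoral fits, 2 for spleen fits and 5 for fits over all 10 libraries. Members under about 1 CPM rested on few counts.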
